A study of Mus musculus with 2 samples.

Results

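The dual-specificity MAP kinase phosphatases are enzymes that remove phosphate from both the threonine and the tyrosine of the activation loop of MAP kinases, the ERK, JNK and p38 enzymes that carry signals from surface receptors to the nucleus. In T cells these kinases act downstream of the antigen receptor and of cytokine receptors, and several of the phosphatase genes are themselves switched on by MAP kinase activity, so that they act as feedback inhibitors. The family is usually divided into inducible nuclear enzymes, ERK-selective cytoplasmic enzymes, and enzymes selective for JNK and p38. An atypical member lacks the domain with which the others bind their substrate. The 10 genes described here (Dusp1, Dusp2, Dusp4, Dusp5, Dusp6, Dusp7, Dusp8, Dusp10, Dusp14 and Dusp16) were found on the array through the RefSeq transcript accession that each probe carries. By this rule 9 of the 10 had a probe, 10 probes in all, out of 18434 named genes with a probe, and Dusp5 had none. Both probes of Dusp14 carry the same accession, and every other member was read by 1 probe printed once.

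RNA came from CD4 T cells of the spleen of C57BL/6 mice, sorted magnetically to a purity above 98%. The cells of both cultures were stimulated for 2 days with immobilized antibody to the T cell receptor and antibody to CD28, and were harvested after 3 further days. For the Th9+IFNgamma culture the additions were 10 ng/ml IFN-gamma, 3 ng/ml IL-4 and 3 ng/ml TGF-beta. For the Th9 culture they were 1 µg/ml of an antibody to IFN-gamma, 10 ng/ml IL-4 and 3 ng/ml TGF-beta. Added IFN-gamma, the antibody and the IL-4 dose thus cannot be told apart. The number of mice behind a culture is not given in the labels. With 1 single-colour array per culture there are no replicates and no test was possible, so differences are described by their size alone.

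A scaled signal is the background-subtracted brightness of a probe once the arrays have been set to the same 75th percentile. It compares the same probe between arrays, and never one gene with another. Well above background were 60.6% of 41174 probes in Th9+IFNgamma and 59.9% in Th9, and saturation was flagged for no spot. All 7 CD4 T cell markers looked for, among them Cd4 and Cd3e, were well above background on both arrays and within 2-fold. Cd8a, a marker of CD8 T cells, was also well above background, at 1338 in Th9+IFNgamma and 1074 in Th9. Of 6 macrophage and monocyte markers, 3 were measured, with summed scaled signals of 86.3 in Th9+IFNgamma and 241 in Th9. The one of these at least 2-fold apart was Adgre1, at 25.8 in Th9+IFNgamma and 186 in Th9. Csf1r read 34.1 in Th9+IFNgamma and 34.3 in Th9, Cd14 read 26.4 in Th9+IFNgamma and 21.3 in Th9, and Lyz2, Itgam and Fcgr1 were at background level on both arrays, meaning not well above background. Of 3 NK cell markers, Klra8 read 15.6 in Th9+IFNgamma and 71.4 in Th9, Klrb1c read 20.5 in Th9+IFNgamma and 39.2 in Th9, and Ncr1 was at background level on both arrays. Of 5 B cell markers, 4 were measured, all within 2-fold, with summed signals of 932 in Th9+IFNgamma and 1324 in Th9. Of 4 dendritic cell markers, 2 were measured and lay within 2-fold. Of the erythroid markers Hba-a1 read 119.6 in Th9+IFNgamma and 53.4 in Th9, and of the mast cell markers Fcer1a read 59.2 in Th9+IFNgamma and 26.7 in Th9. The part of these other cells in the member values was not tested. In bulk RNA, fewer cells of a type and less RNA per cell cannot be told apart.

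The members did not move together. Dusp2 was 2.97-fold higher in Th9+IFNgamma, whereas Dusp14 was 5.93-fold lower and Dusp7 2.46-fold lower. Dusp6 (1.92-fold higher) and Dusp4 (1.83-fold lower) came close to the 2-fold threshold from inside, and Dusp10 and Dusp1 lay well within it. Dusp8 and Dusp16 were at background level on both arrays. Of the 7 members measured on both arrays, 1 was therefore at least 2-fold higher, against 5.15% of the 12272 genes measured on both arrays. Another 2 members were at least 2-fold lower, against 7.42% of all measured genes. Either direction together, 3 of 7 members were at least 2-fold apart, against 12.6% of all measured genes, and with 7 genes nothing particular to the family can be read from that share. Counted by probe, 1 of 8 measured probes was at least 2-fold higher, against 4.79% of all 23628 measured probes, and 3 of 8 at least 2-fold lower, against 6.41%. The 3 lower probes include both probes of Dusp14, so that gene enters the probe count more than once. The median log2 difference of the 7 members was -0.48, beside -0.0061 over all measured genes. Their median size of difference without regard to sign was 0.94 on the log2 scale, beside 0.33 over all measured genes.

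**Figure D1:**
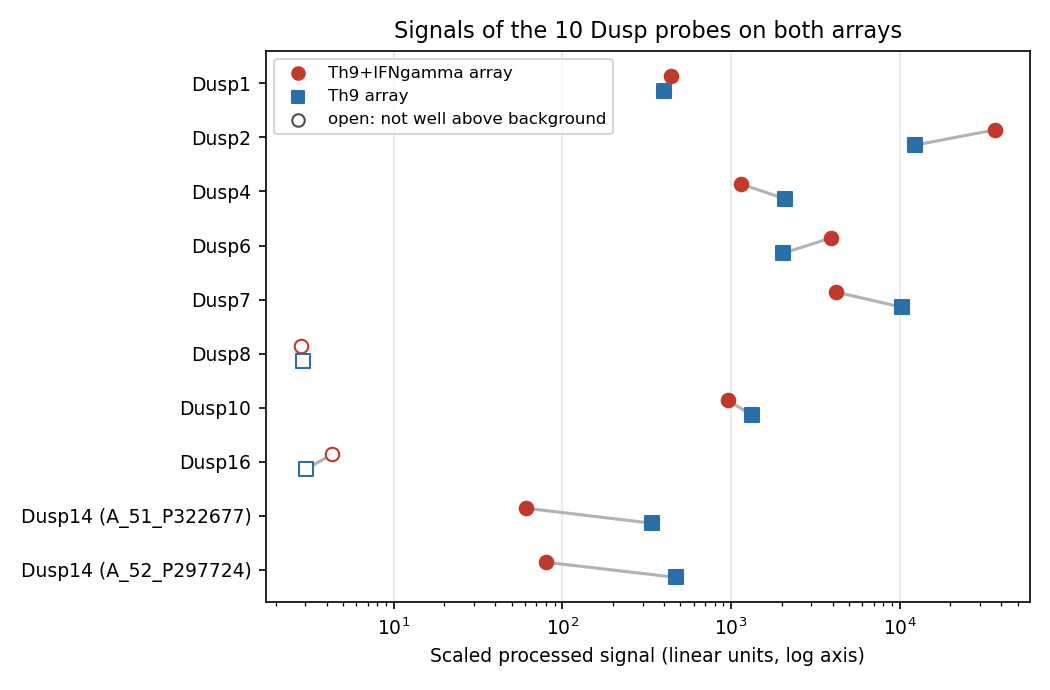
Scaled processed signal (log axis) of each of the 10 probes, with a red circle for the Th9+IFNgamma array and, just below it, a blue square for the Th9 array, and open symbols for signals not well above background. Signals compare only within a row. Dusp2 reads 36762 in Th9+IFNgamma against 12384 in Th9, both Dusp14 probes lie far to the left in Th9+IFNgamma, and Dusp8 and Dusp16 are open on both arrays.

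Among the inducible nuclear enzymes, Dusp2 stood out. It encodes PAC-1, a phosphatase found mainly in blood and lymphoid cells and induced when T cells are activated. Its scaled signal was 36762 in Th9+IFNgamma and 12384 in Th9, a log2 difference of 1.57 with a software error of 0.20. The software error is what the extraction program assigns to the 2 spots behind a difference. It covers the reading of spots, not how mice, cultures or labelling reactions vary. Of all measured genes, 2.18% (267 genes) were at least as much higher. The raw processed signals, before any scaling between arrays, were 38809 in Th9+IFNgamma and 11731 in Th9.

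The stretch before the transcription start of Dusp2 is shown because this is the member at least 2-fold higher in Th9+IFNgamma. It is RefSeq sequence of GRCm38.p6, chr2:127335909-127336158, plus strand, 250 bases that end just before the start site and are read from 5′ to 3′. Capitals mark every match, on either strand, to the patterns searched. Those present are the E box CACGTG, a site of MYC, MAX and USF factors, the GC box GGGCGG, a site of SP and KLF factors, and the SMAD element CAGAC.
Dusp2: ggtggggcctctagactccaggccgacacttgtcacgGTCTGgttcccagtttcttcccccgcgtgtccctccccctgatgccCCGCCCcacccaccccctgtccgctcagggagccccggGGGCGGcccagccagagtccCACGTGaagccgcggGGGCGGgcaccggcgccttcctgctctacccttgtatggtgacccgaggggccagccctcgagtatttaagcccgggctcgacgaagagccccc
The Dusp2 window held 1 E box at -109 from the start site, 3 GC boxes and 1 SMAD element on the opposite strand. The window of Dusp1, whose log2 difference was only 0.12, held the same numbers of these patterns. The GC box was present in 7 of the 9 member windows available. G and C made up 70.4% of the Dusp2 window, beside a median of 52.4% over all windows. Whether these patterns bear on the difference of Dusp2 was not tested. Of all 32851 windows of this length in the RefSeq table, 6.02% held the E box, 32.7% the GC box and 42.2% the SMAD element. A match describes letters in the window and does not show that a factor binds there.

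Dusp1, which encodes MKP-1, a broadly acting nuclear phosphatase and an immediate early gene, differed little between the cultures. It read 438 in Th9+IFNgamma and 402 in Th9, a log2 difference of 0.12 that lies within its software error of 0.20. Dusp4, which encodes MKP-2, went the other way from Dusp2. Its signal was 1146 in Th9+IFNgamma and 2101 in Th9, a log2 difference of -0.87 with a software error of 0.20. Of all measured genes, 9.02% were at least as much lower as Dusp4. The gap between the log2 differences of Dusp2 and Dusp4 was 2.44, and that between Dusp2 and Dusp1 1.45. Dusp5, the nuclear ERK-specific enzyme, is the member with no probe by the rule, and its expression was not analysed here.

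The ERK-selective cytoplasmic enzymes differed in opposite directions. Dusp6 encodes MKP-3, an ERK phosphatase that is itself a well-known transcriptional target of ERK signalling. It read 3923 in Th9+IFNgamma and 2042 in Th9, a log2 difference of 0.94 with a software error of 0.20. The difference lies inside the 2-fold threshold by less than that error, and 5.66% of all measured genes were at least as much higher. With scaling on the median of all probes, which moved the median of all genes by 0.11, the log2 difference of Dusp6 was 1.06, past the threshold.

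Dusp7 encodes MKP-X, a close relative of MKP-3. It read 4178 in Th9+IFNgamma and 10272 in Th9, a log2 difference of -1.30 with a software error of 0.20. Of all measured genes, 4.81% (590 genes) were at least as much lower. The median pixel brightness of its spot, before the program's background and detrending steps, was 4436 in Th9+IFNgamma and 8122 in Th9. With normexp background correction of those pixel values the log2 difference was -1.01. The gap between Dusp6 and Dusp7 in log2 difference was 2.24. The windows before the start sites of Dusp6 and Dusp7 held none of the patterns named here.

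**Figure D2:**
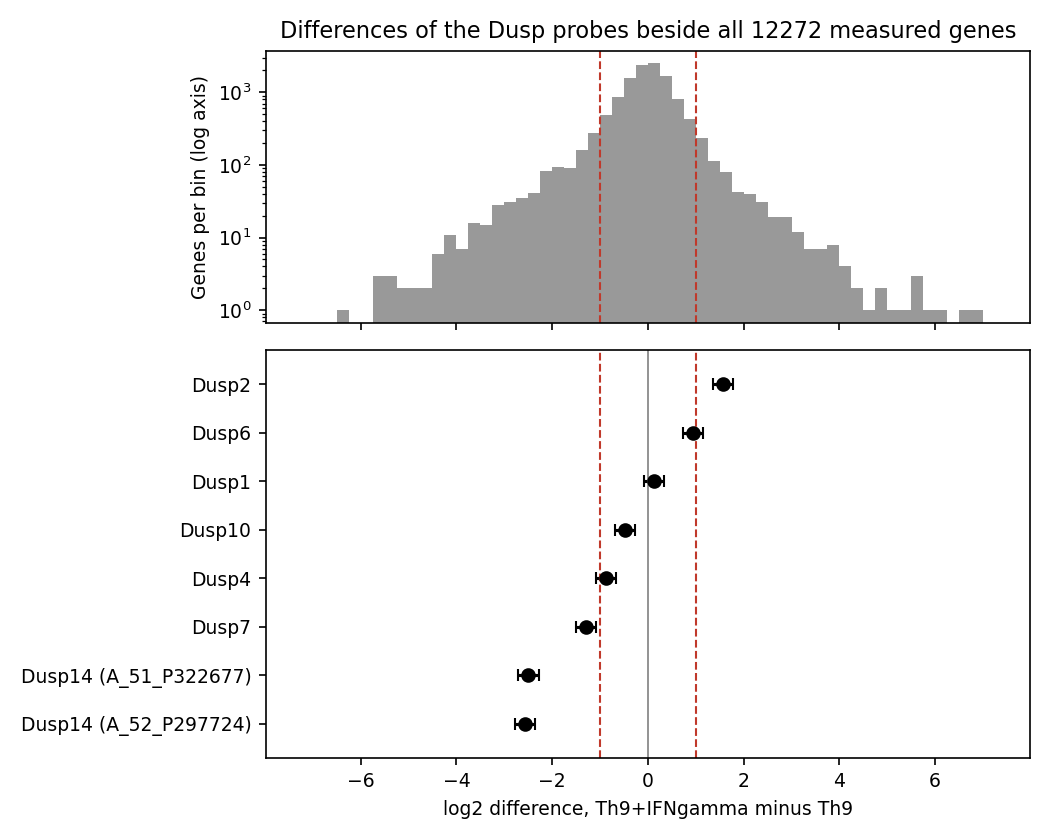
The log2 difference of Th9+IFNgamma minus Th9, over all 12272 measured genes as a histogram with a log axis of counts (top) and for the 8 measured Dusp probes with their software error as bars (bottom). Dashed lines mark 2-fold. Dusp2 lies beyond the line on the right, Dusp7 and both Dusp14 probes beyond the line on the left, and the bars of Dusp6 and Dusp4 cross a line.

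Of the enzymes selective for JNK and p38, only Dusp10 was measured on both arrays. It encodes MKP-5, whose loss in mice alters cytokine production by T cells. Its signal was 956 in Th9+IFNgamma and 1329 in Th9, a log2 difference of -0.48 with a software error of 0.20, and 19.4% of all measured genes were at least as much lower. Dusp8 read 2.81 in Th9+IFNgamma and 2.90 in Th9. Dusp16, which encodes the JNK phosphatase MKP-7, read 4.34 in Th9+IFNgamma and 3.01 in Th9. The lowest signal well above background was 11.1 in Th9+IFNgamma and 12.5 in Th9. Neither gene has a difference to report, and a single probe that stays at background does not show that the transcript is absent.

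The letters of the CRE, TGACGTCA, a palindromic site of CREB and ATF factors, were present before the start sites of Dusp1 and Dusp8. They are shown with 8 bases on either side. Of all windows, 1.55% hold them. The patterns were chosen after the sequences were seen, so this share does not measure how unusual the matches are. The Dusp1 match is at chr17:26508608-26508615, outside the annotated span of the gene. The Dusp8 matches are at chr7:142095384-142095391 and chr7:142095340-142095347, inside the annotated span of that gene. All are of GRCm38.p6 and read on the minus strand, with the CRE in capitals.
Dusp1: agggcgggTGACGTCAccgcccgg
Dusp8, distal: cgctccgcTGACGTCAcctgcccc
Dusp8, proximal: gctgcaggTGACGTCAggggcttt
Of these 2 members, Dusp1 hardly differed between the cultures and Dusp8 was at background level on both arrays. A part of the CRE in these values was not tested.

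Dusp14 had the largest difference of the measured members. It encodes MKP-6, the atypical member without a MAP kinase binding domain, which in mouse T cells acts on TAB1, a partner of the kinase TAK1, and limits signalling from the antigen receptor. Its brighter probe, A_52_P297724, read 79.6 in Th9+IFNgamma and 472 in Th9, a log2 difference of -2.57 with a software error of 0.21. Its other probe, A_51_P322677, read 60.7 in Th9+IFNgamma and 342 in Th9, a log2 difference of -2.50 with a software error of 0.21. The probes thus gave nearly the same difference, 5.93-fold and 5.64-fold lower, at signals well above background on both arrays. Of all measured genes, 1.23% (151 genes) were at least as much lower as the brighter probe. With normexp background correction the log2 difference of the brighter probe was -1.71. Normexp as run here also adds 50 to every signal, which by itself narrows the differences of dim probes.

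The window before the Dusp14 start site held the letters TTCNNNGAA, the interferon-gamma activated site (GAS) pattern of STAT dimers, once. It is the only one of the 9 members' windows in the table that did, and 7.02% of all windows hold it. The match is shown because Dusp14 is the member with the largest difference. It lies at chr11:84068549-84068557 of GRCm38.p6, minus strand, from -200 to -192, inside the annotated span of the gene since other starts lie further upstream.
Dusp14: tggacagaTTCTTCGAAcgccagct
The 9 matched letters are in capitals. The same window also held an ETS core (CCGGAA, in 12.0% of all windows), a GC box and a SMAD element. None of the 9 windows held the STAT6 pattern (TTC and GAA with 4 bases between them, in 5.85% of all windows), the core of the interferon-stimulated response element (GAAA and GAAA with 2 bases between them, in 2.98%) or the AP-1 pattern TGANTCA (in 6.75%).

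For the rest of the pathway, 108 other genes in 7 lists were looked up, of which 86 were measured on both arrays. In Th9+IFNgamma 3 of these were 2-fold or more higher and 8 were 2-fold or more lower (3.49% and 9.30%, beside 5.15% and 7.42% of all measured genes), and the median log2 difference was -0.17. Of the 11 measured MAP kinases, on which the phosphatases act, 8 lay within 2-fold. The share at least 2-fold apart was 27.3%, beside 12.6% of all measured genes. Mapk3, which encodes ERK1, read 4165 in Th9+IFNgamma and 4230 in Th9, and was named after its value was seen.

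The differences at least 2-fold among the 11 measured MAP kinases were all in p38 isoforms. Mapk12, which encodes p38 gamma, was 19.1-fold lower, at 43.0 in Th9+IFNgamma and 820 in Th9, and its other probe gave a log2 difference of -4.05. With normexp background correction its log2 difference was -2.87 in place of -4.25. Mapk11, which encodes p38 beta, was 2.30-fold lower, at 696 in Th9+IFNgamma and 1597 in Th9. Mapk13, which encodes p38 delta, was 2.65-fold higher, at 1002 in Th9+IFNgamma and 379 in Th9. Mapk14, which encodes p38 alpha, named after its value was seen, was 1.63-fold higher, at 5079 in Th9+IFNgamma and 3125 in Th9. Of the JNK genes, Mapk8 and Mapk9 lay within 2-fold by their brightest probes, and 1 other probe of Mapk8 gave a log2 difference of -1.33. Mapk10 was at background level on both arrays. These 3 were named after their values were seen.

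Upstream, none of 7 MAP kinase kinases was 2-fold apart, beside 12.6% of all measured genes. Their log2 differences ran from -0.49 to 0.46. Of 17 measured MAP3 kinases, 1 was 2-fold apart (5.88%, beside 12.6% of all measured genes). This gene, Map3k20, encodes ZAK. It read 15.1 in Th9+IFNgamma, close to the lowest signal well above background, and 643 in Th9. Only 1 of the 2 Map3k20 probes was well above background on both arrays. The log2 difference of Map3k20 was -3.13 with normexp in place of -5.41. None of 15 kinase substrates and effectors was 2-fold apart, with differences from -0.75 to 0.55. With lists this small, nothing particular to a list can be read from these counts.

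**Figure D3:**
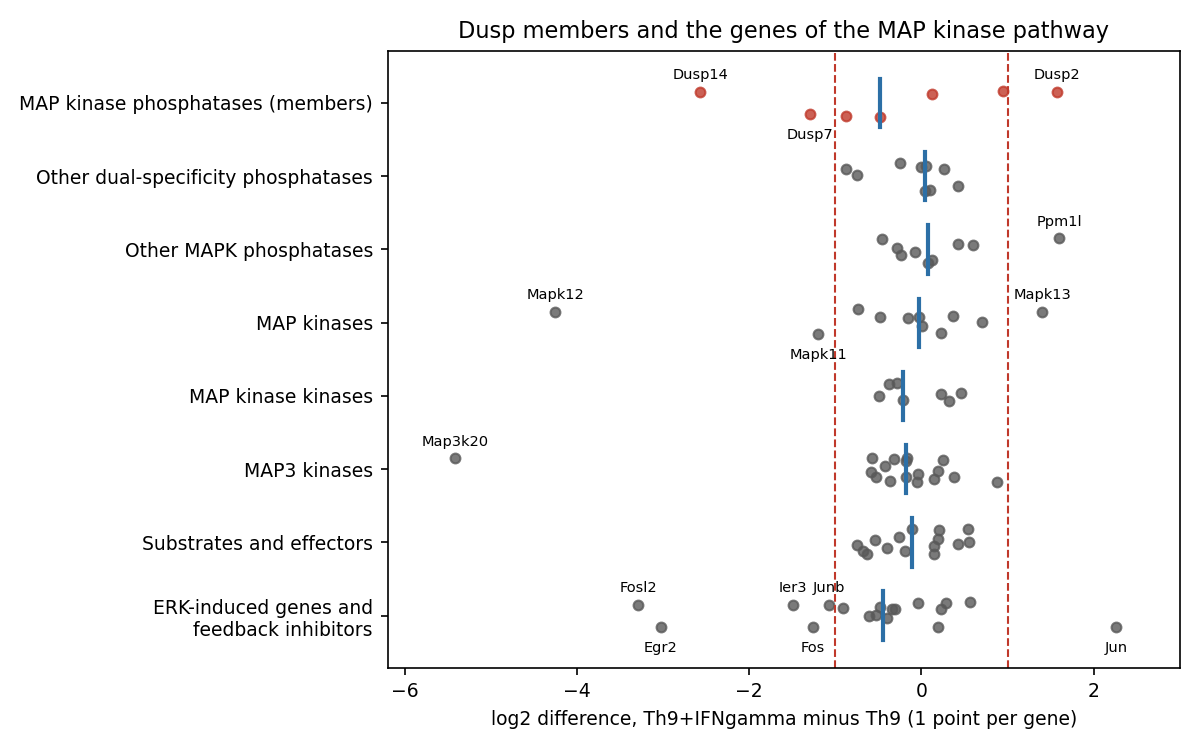
The log2 difference of Th9+IFNgamma minus Th9 for each gene measured on both arrays, 1 point per gene, with the members at the top and the 7 other lists of the pathway below. Blue bars are list medians, dashed lines mark 2-fold, and genes beyond a line are named. The MAP kinase kinases and the substrates and effectors have no gene beyond a line, whereas the members, the MAP kinases and the ERK-induced genes have genes on both sides.

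Genes induced by ERK, and the Sprouty and Spred inhibitors that work in parallel to the phosphatases, went both ways. Among the 18 measured, 1 gene was 2-fold or more higher (5.56%, beside 5.15% of all measured genes) and 5 were 2-fold or more lower (27.8%, beside 7.42%). Their median log2 difference was -0.44. Jun, an AP-1 subunit, was 4.79-fold higher, at 2042 in Th9+IFNgamma and 426 in Th9. Fosl2, another AP-1 subunit, was 9.78-fold lower, at 51.6 in Th9+IFNgamma and 505 in Th9. This value comes from the 1 of its 2 probes that was well above background on both arrays. Egr2, a zinc finger factor induced through the T cell receptor, was 8.15-fold lower, at 104 in Th9+IFNgamma and 851 in Th9. Ier3 was 2.82-fold lower. Fosl1, likewise an AP-1 subunit and named afterwards, was detected in Th9 only, which makes it 1.99-fold lower in Th9+IFNgamma by an approximate bound. Fos (24.8 in Th9+IFNgamma and 59.4 in Th9) and Junb (39494 in Th9+IFNgamma and 83296 in Th9) completed the lower genes and were named after their values were seen. Junb was past the threshold by its brighter probe, at -1.08, and just short of it by the other, at -0.996. With normexp background correction 3 genes of this list, in place of 5, were at least 2-fold lower, since Fos (-0.61) and Junb (-0.99) then lay within 2-fold. The constant added in normexp by itself narrows the differences of dim probes such as that of Fos. The log2 difference of Fosl2 was -2.11 with normexp in place of -3.29, and that of Egr2 -2.41 in place of -3.03. Spry1, Spry2, Spred1, Spred2 and Spred3, likewise named afterwards, all lay within 2-fold.

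Of 15 other dual-specificity phosphatases, 9 were measured and none was 2-fold apart, beside 12.6% of all measured genes. Their median was 0.041, with a range from -0.87 to 0.42. Among them was Dusp9, named after its value was seen, which encodes the remaining ERK-selective cytoplasmic enzyme and read 63.7 in Th9+IFNgamma and 61.2 in Th9. Dusp3, which encodes the small phosphatase VHR, was well above background on the Th9 array alone. Against the lowest signal well above background in Th9+IFNgamma it was 2.78-fold lower there, an approximate bound. Of 9 other phosphatases looked up for the pathway, 8 lay within 2-fold, and 11.1% were 2-fold apart, beside 12.6% of all measured genes. Among the 8 was Ptpn7, named afterwards, a tyrosine phosphatase of blood cells that binds ERK and p38. It read 14731 in Th9+IFNgamma and 9762 in Th9. The exception was Ppm1l, a serine and threonine phosphatase, at 696 in Th9+IFNgamma and 229 in Th9, 3.03-fold higher by the 1 of its probes that was well above background on both arrays.

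**Figure D4:**
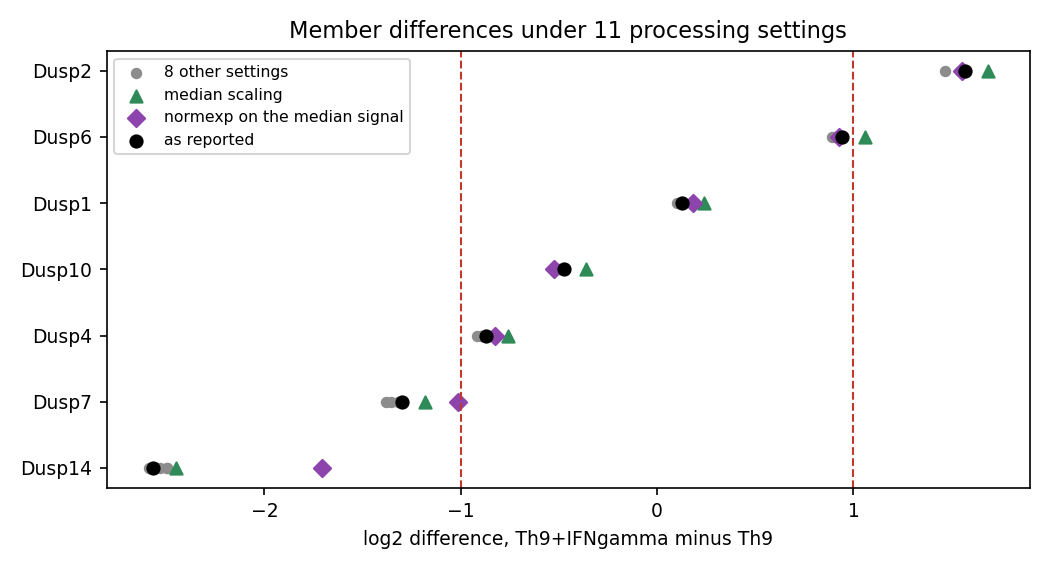
The log2 difference of Th9+IFNgamma minus Th9 of the 7 measured members under 11 processing settings, with the reported value in black, scaling on the median as green triangles, normexp as purple diamonds and 8 other settings in grey. Dashed lines mark 2-fold. Dusp2, Dusp7 and Dusp14 stay beyond a line in every setting shown, and Dusp6 crosses it with median scaling.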

How the data were processed

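The scanner files hold intensity values, which the authors obtained with Agilent Feature Extraction (version 10.7.3.1 per the file headers, 10.7 in the submitters' processing notes). Per the file headers, background subtraction and detrending within an array gave the processed intensity, with no scaling between arrays. Both arrays lay on 1 slide and were read in 1 scan. A table of log2 values deposited by the authors equalled log2 of the processed signal shifted by the array's 75th percentile (SD of the residual offset 2.5e-07 for Th9+IFNgamma and 2.2e-07 for Th9). Its medians were -4.05 in the Th9+IFNgamma column and -3.93 in the Th9 column.

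Log2 signals were averaged over a probe's spots without outlier spots, and each array's 75th percentile (632 for Th9+IFNgamma and 567 for Th9) was set to 599. No member spot was an outlier. Accessions were matched without version to RefSeq genes of GRCm38.p6, which named 27050 of 41174 probes. Genes take the value of their brightest probe that is well above background on both arrays. A gene detected on 1 array has a bound, in which the dim signal is replaced by the array's lowest signal well above background where that is higher. The bound is approximate, since a probe can exceed that lowest signal and still not be well above background. In Th9, for example, Itgax at 13.1 was not, although the lowest such signal was 12.5. Single spots of 144 probes printed 10 times gave log2 differences with an SD of 0.14 (0.29 below a signal of 64, 0.09 from 64 to 1024 and 0.05 above). The number of arrays limits the precision. The counting step was checked on simulated signals, which bears on the computation and not on the cultures.

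The members and lists were chosen with earlier results of these data known, and the promoter patterns after seeing the sequences. Named are all members and, from each list, up to 3 genes per direction at least 2-fold apart whose probes agree in sign, and the largest bound per direction where it is at least 2-fold. Agreement in sign counts only probes well above background on both arrays. Other pathway genes are marked as named after their values were seen. Promoter sequences are RefSeq's, with 9 of 10 members in the table. R 4.3.3 with limma 3.58.1 served for normexp (offset 50, on the median signal) and loess, and Python 3.11.15 with pandas 2.3.3 for the rest.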

Additional observations from a re-analysis of the deposited data

How the results depend on the processing

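Results were recomputed under 10 alternative settings, and the counts of member probes under 8 of them, since another summary over probes does not alter a probe. No paired analysis was possible because each culture has 1 array, and for the same reason no replicate could be left out and no slide block fitted. Dusp2 (log2 difference 1.47 to 1.68), Dusp7 (-1.38 to -1.01) and Dusp14 (-2.59 to -1.71) were at least 2-fold apart in all 10, and Dusp1 (0.10 to 0.24), Dusp4 (-0.92 to -0.76) and Dusp10 (-0.52 to -0.36) in none. With median scaling 2 member genes and 2 member probes were at least 2-fold higher, against 1 of each as reported, the addition being Dusp6 at 1.06. That scaling split the calls over all genes 772 higher to 776 lower, against 632 to 910 as reported, and raised the median of all genes by 0.11. Without the filter on dim probes, which admits Dusp8 and Dusp16, the member median was -0.043. With normexp 437 genes were higher and 582 lower, and without the filter on dim probes 1205 and 1788. The constant added in normexp by itself lowers such counts among dim probes. Of 276 recomputed values 269 stayed within the software error or, for counts, within 1.5 times, and 0 changed sign past 2-fold. Those values include the settings that could hardly move a member, so the share overstates how much was tested. The low signals of Dusp8 and Dusp16 limit what can be said of them.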
